A study of Mus musculus with 20 samples.

Results

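The 9 genes described here are genes of red cell and blood stem cell development: the transcription factor genes Klf1, Tal1, Lmo2, Nfe2 and Bcl11a, the receptor genes Epor, Kit and Tfrc, and the anion exchanger gene Slc4a1. They were listed by name, out of 22072 protein-coding genes on the autosomes and the X chromosome, with earlier results of these data known. Each gene was taken with 10 kb on either side in the mouse build NCBIM37 (mm9), and these windows hold 456591 bp in all. The measure was the number of bases of a window that lay under peaks of 5-formylcytosine (5fC).

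The libraries were 5fC pull-downs of genomic DNA from dissected tissues of mouse embryos at mid-gestation, 20 libraries from 12 embryos of 6 litters. WT embryos were compared with Tdg null embryos, in which the sequence for the catalytic domain of thymine DNA glycosylase had been replaced by a neomycin cassette, so the missing function is that of every cell of the embryo and not of blood cells alone. Hindbrain came from 4 WT and 4 Tdg null embryos, 1 of each genotype from litters A, O, Q and Z. Heart, liver and carcass, the embryo that remained after dissection, came from 2 WT and 2 Tdg null embryos of the litters labelled pair_a and pair_b, so these 3 tissues share embryos. The Tdg null liver library of pair_b held 228 peaks, none of them in the 9 windows, and was left out of every main value, which leaves 19 libraries and a lone Tdg null liver. Whole tissues were used, and the positions of peaks do not measure expression, so the tissue labels could not be checked against expressed markers and blood cells within a tissue cannot be told apart from its other cells.

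As background, 5fC arises when TET enzymes oxidise 5-methylcytosine, and TDG cuts out 5fC and 5-carboxylcytosine so that an unmodified cytosine can be put back by base excision repair. Fetal liver at this stage is the organ in which definitive red cells form. Tal1 and Lmo2 proteins sit with GATA factors in a DNA-bound complex needed for blood stem cells and red cells, Klf1 and Nfe2 switch on globin and other red cell genes, and Bcl11a represses embryonic and fetal globin genes. Epor binds erythropoietin, Kit binds stem cell factor, Tfrc takes up transferrin iron, and Slc4a1, also known as band 3, exchanges chloride and bicarbonate across the red cell membrane.

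The number of peaks differed widely between libraries, from 101343 to 254318 in the 9 Tdg null libraries used and from 1562 to 41968 in the 10 WT libraries, which covered 2.68% to 8.10% and 0.0350% to 0.939% of the genome. The files hold no read counts, so the depth of each library is unknown here and differences in depth and in 5fC cannot be told apart. For that reason a second measure, relative coverage, set the covered bases of a window against those expected from the share of the genome covered in the same library, as a log2 ratio with 200 bases added to both.

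Peaks over the 9 windows were numerous in Tdg null tissue and few in WT tissue. Tdg null hindbrain had 34, 41, 43 and 39 peaks there (litters A, O, Q, Z in turn) and WT hindbrain 1, 7, 13 and 0. The share of the windows under peaks was 7.11% ± 0.453 (SD, n = 4) in Tdg null and 0.749% ± 0.905 (SD, n = 4) in WT hindbrain, and the groups did not overlap. The difference was 4.36 on the log2 scale of covered bases plus 200 (p = 0.0286, two-sided exact permutation test, the smallest p that 4 against 4 allows). With the litter as a pair the same difference gave p = 0.125 in an exact sign-flip test, the smallest that 4 pairs allow.

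Tdg null heart had 98 and 62 peaks in litters pair_a and pair_b, and WT heart 0 and 2. Tdg null carcass had 58 and 81, against 9 and 11 in WT carcass. The Tdg null liver had 32, and the WT livers 9 and 1. Covered shares were 14.1% ± 5.44 (SD, n = 2) in Tdg null heart, 14.9% ± 3.19 (SD, n = 2) in Tdg null carcass and 6.55% in the Tdg null liver, and 0.0986% ± 0.139 (SD, n = 2), 1.28% ± 0.108 (SD, n = 2) and 0.613% ± 0.681 (SD, n = 2) in WT heart, carcass and liver. When tissues from the same litter were averaged, Tdg null exceeded WT in each of 6 litters, by 4.47 on the log2 scale on average and by 1.88 to 7.43 in single litters (p = 0.03125, two-sided exact sign-flip permutation test, the smallest that 6 litters allow).

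Relative coverage of the 9 windows in hindbrain differed between the genotypes by -0.001 (p = 1.0, two-sided exact permutation test, n = 4 against 4). The ratio of the windows' covered share to that of the genome was 3.43, 5.06, 4.21 and 0 in WT hindbrain A, O, Q and Z and 1.81, 2.62, 2.10 and 2.05 in Tdg null hindbrain, so 3 of 4 WT libraries lay above the Tdg null ones and 1 below. The difference in relative coverage was -0.64 without WT hindbrain Z, which had no peak in the windows, 0.34 without O and 0.30 without Q. In the other tissues the ratio was not tested. It was 2.35 and 2.27 in Tdg null against 1.28 and 1.69 in WT carcass, 2.21 and 2.81 against 0 and 1.66 in heart, and 2.16 against 3.44 and 3.54 in liver. The WT heart ratios rest on 0 and 900 covered bases and that of WT liver pair_b on 600. Without Kit and Bcl11a the genotypes overlapped in carcass (WT 0.446 and 0.940), heart (WT 0 and 1.76) and liver (WT 1.32 and 0). Within the Tdg null libraries the 9 windows were covered 1.81 to 2.81 times as densely as the genome, and all gene windows together 1.19 to 1.496 times. The long windows of Kit and Bcl11a carried most of these bases, and without them the other 7 windows in the Tdg null libraries stood at 0.627 to 2.01 times the genome, lowest in both carcass libraries (0.627 and 0.736) and highest in heart pair_b, with 1.24 in heart pair_a and 1.15 in the liver.

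**Figure D1:**
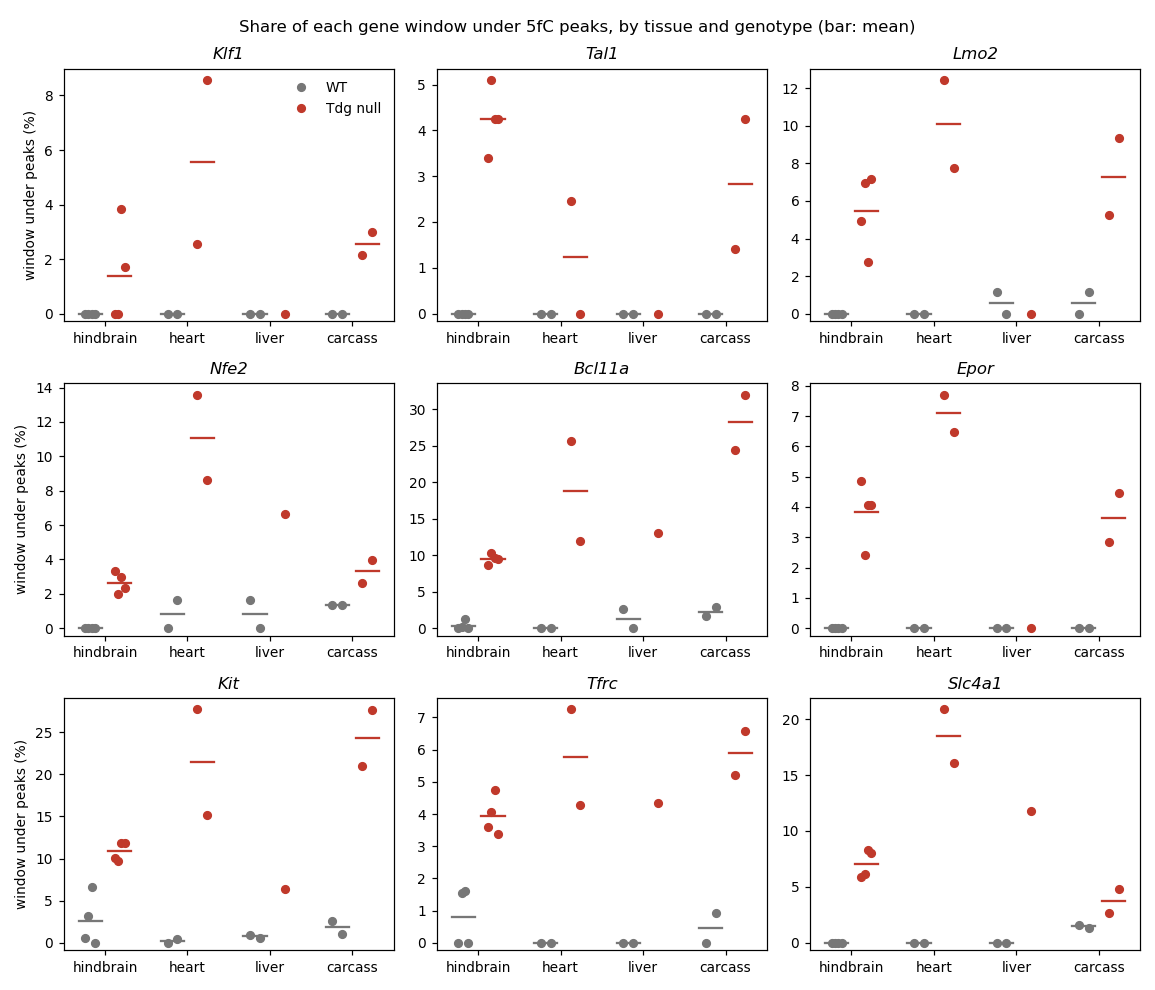
Share of each gene window under 5fC peaks (%, linear axis, a scale of its own for each gene) in every library, by tissue, with WT in grey and Tdg null in red; bars are means where a group has over 1 library. Tdg null hindbrain lies above WT hindbrain without overlap in every panel except Klf1, and the lone Tdg null liver is at 0 for Klf1, Tal1, Lmo2 and Epor.

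In hindbrain, 8 of the 9 members were covered more in every Tdg null library than in any WT library, Klf1 being the exception. Over all gene windows this held for 63.4%. It also held for 16 of 24 other blood genes, 10 of 13 hepatocyte genes and 9 of 12 endothelial genes. Each of the 8 members had p = 0.0286 by the two-sided exact permutation test and an adjusted p of 0.0451 over all 22072 windows by Benjamini-Hochberg, and with the litter as a pair each had p = 0.125 by the exact sign-flip test. Over all 9 pairs of a Tdg null and a WT library of the same tissue and litter, Bcl11a, Kit, Nfe2, Slc4a1 and Tfrc were covered more in the Tdg null library each time. Epor was so in 8 pairs with 1 tie, Tal1 in 7 with 2 ties, Klf1 in 6 with 3 ties, and Lmo2 in 8 with the opposite order in the liver pair.

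Tal1, at chr4:114729031-114744360 on the plus strand, encodes a basic helix-loop-helix factor without which no blood lineage forms. Its window had no peak in any of the 10 WT libraries. In Tdg null hindbrain 1200, 1800, 1500 and 1500 bp were covered in litters A, O, Q and Z, in Tdg null carcass 500 and 1500 bp, in Tdg null heart 870 and 0 bp, and in the Tdg null liver 0 bp. All hindbrains and carcasses had peaks, and 1 heart and the liver had none. None of the hindbrain peaks lay in the gene itself, since both of the recurrent stretches were outside it. A stretch is here a run of bases under peaks of at least 2 Tdg null libraries, and its distance is that of its midpoint from the start site along the gene.

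The upstream stretch of Tal1, chr4:114720801-114721500, was 700 bp long at -7881 bp and lay under peaks of all 4 Tdg null hindbrains, 1 of 2 hearts and both carcasses. The downstream stretch, chr4:114751101-114752200, was 1100 bp long at 22619 bp and lay under peaks of all 4 hindbrains, 1 carcass and no heart. Relative coverage was lower in Tdg null heart than in Tdg null hindbrain, with a difference of -2.49 on the log2 scale (SE 0.448, limma adjusted p = 0.00765). As heart pair_b had no peak here, the size depends on the added bases, from -3.52 with 50 to -1.31 with 1000. It was -1.80 without heart pair_b (adjusted p 0.0556) and -1.66 thinned to equal peak numbers (adjusted p 0.233). The central 300 bp of the upstream stretch, chr4:114721001-114721300 of NCBIM37, plus strand, are shown because this stretch was the most shared peak of the window; every CpG, the site at which 5fC is mostly found, is in capitals, and there are 6.
Tal1 upstream stretch: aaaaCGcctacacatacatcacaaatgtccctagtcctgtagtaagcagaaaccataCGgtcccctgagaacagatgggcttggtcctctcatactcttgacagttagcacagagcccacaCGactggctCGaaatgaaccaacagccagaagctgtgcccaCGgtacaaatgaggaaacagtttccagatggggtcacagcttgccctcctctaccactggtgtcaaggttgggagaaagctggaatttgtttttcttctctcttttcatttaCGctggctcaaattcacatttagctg

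Lmo2, at chr2:103798143-103822035 on the plus strand, encodes the LIM-only protein that bridges Tal1 and GATA factors. It was covered over 2158, 3058, 1200 and 3158 bp in Tdg null hindbrain A, O, Q and Z, over 5458 and 3400 bp in Tdg null heart and over 2300 and 4100 bp in Tdg null carcass. The Tdg null liver had 0 bp. Among WT libraries a 500 bp peak was found in liver pair_a and another in carcass pair_b, and the other 8 had none. Every Tdg null library except the liver thus lay above every WT library.

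None of the 8 recurrent stretches of Lmo2 lay under a Tdg null liver peak. The most shared, chr2:103817201-103818600, was 1400 bp long in an intron at 19757 bp and lay under peaks of all 4 Tdg null hindbrains, 1 heart, both carcasses and 1 WT carcass. Stretches at -2293, 17157 and 22257 bp lay under both hearts and no other Tdg null tissue, the stretch at 21157 bp under both carcasses only, and that at 10957 bp under 2 hindbrains only. The intron sequence chr2:103817751-103818050 (NCBIM37, plus strand, CpG in capitals) is shown as the region that hindbrain, heart and carcass shared and the liver lacked. It has 3 CpGs and 1 match to AGATAA, the letters bound by GATA factors.
Lmo2 intron stretch: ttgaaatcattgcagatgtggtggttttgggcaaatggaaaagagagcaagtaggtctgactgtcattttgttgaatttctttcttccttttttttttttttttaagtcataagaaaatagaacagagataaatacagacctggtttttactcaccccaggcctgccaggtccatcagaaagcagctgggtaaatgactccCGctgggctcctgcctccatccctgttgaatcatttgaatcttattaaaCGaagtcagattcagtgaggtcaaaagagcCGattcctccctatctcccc

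Epor, at chr9:21763343-21768020 on the minus strand, encodes the erythropoietin receptor that red cell precursors need to survive. Its window, which also touches 2310047B19Rik, BC018242 and Rgl3, had no peak in any WT library. Tdg null hindbrain had 1200, 600, 1000 and 1000 bp covered in litters A, O, Q and Z, Tdg null carcass 700 and 1100 bp, Tdg null heart 1900 and 1600 bp and the Tdg null liver 0 bp. In covered bases hearts were the highest, and the 8 Tdg null libraries other than liver were all above 0. In relative coverage heart pair_a (-0.07) lay below hindbrain A (0.36), Q (0.17) and Z (0.12) and above hindbrain O (-0.11). Heart pair_b had 0.71 and the carcasses -0.77 and -0.67.

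All 8 of those libraries shared a peak across the start site of Epor. The stretch, chr9:21767801-21768600, was 800 bp long with its midpoint at -180 bp, and neither the Tdg null liver nor any of 10 WT libraries had a peak there. A further stretch at -5480 bp lay under 3 hindbrains and 1 carcass. The upstream part of the start-site stretch, chr9:21768051-21768350 (NCBIM37, plus strand, so opposite to the gene; CpG in capitals), holds 6 CpGs and 1 AGATAA and is shown as the start-site region that 8 of 9 Tdg null libraries had in common.
Epor start-site stretch: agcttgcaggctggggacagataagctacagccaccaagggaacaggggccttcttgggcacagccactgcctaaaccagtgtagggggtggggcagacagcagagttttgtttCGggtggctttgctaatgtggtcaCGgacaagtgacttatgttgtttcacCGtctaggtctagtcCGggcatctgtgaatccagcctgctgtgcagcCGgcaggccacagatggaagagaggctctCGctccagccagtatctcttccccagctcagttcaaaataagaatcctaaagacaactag

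Slc4a1, at chr11:102210138-102227517 on the minus strand, encodes the most abundant protein of the mature red cell membrane. Tdg null hindbrain had 2200, 2300, 3100 and 3000 bp covered in litters A, O, Q and Z, Tdg null heart 7800 and 6000 bp, the Tdg null liver 4400 bp and Tdg null carcass 1000 and 1800 bp. In covered bases heart was the highest and carcass the lowest. In relative coverage the liver (1.79) lay between the hearts of pair_a (1.31) and pair_b (1.99). WT hindbrain, heart and liver had no peak, and the WT carcasses had 600 and 500 bp at the downstream edge of the window, where no Tdg null library had a peak.

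The tissues differed in where Slc4a1 was covered. Of its 12 recurrent stretches, 4 lay under heart and liver peaks and under no hindbrain or carcass peak, and 2 lay under hindbrain and carcass peaks and no heart or liver peak. Those of heart and liver included chr11:102220701-102222200, 1500 bp long around an intron midpoint at 6067 bp, and chr11:102209001-102210300, 1300 bp long past the end of the gene at 17867 bp, each under both hearts and the liver. The most shared stretch, chr11:102203901-102204600, lay 700 bp long at 23267 bp under 4 hindbrains, 1 heart and both carcasses. The stretch chr11:102235401-102236000 at -8183 bp lay under the liver and 1 heart alone.

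The centre of that 1500 bp stretch of Slc4a1, chr11:102221301-102221600 (NCBIM37, plus strand, opposite to the gene; CpG in capitals), is intronic at its midpoint, overlaps 1 coding exon and is given because both hearts and the liver had it and no hindbrain or carcass did. It has 10 CpGs and no AGATAA.
Slc4a1 heart and liver stretch: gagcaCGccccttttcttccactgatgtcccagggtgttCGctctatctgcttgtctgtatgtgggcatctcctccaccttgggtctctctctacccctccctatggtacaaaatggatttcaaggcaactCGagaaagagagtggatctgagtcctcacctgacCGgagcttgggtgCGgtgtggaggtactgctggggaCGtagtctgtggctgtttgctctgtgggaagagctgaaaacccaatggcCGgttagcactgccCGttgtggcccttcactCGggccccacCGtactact

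Nfe2, at chr15:103078643-103088834 on the minus strand, encodes the large subunit of a factor that binds globin enhancers. Its window also touches Cbx5 and Hnrnpa1. Tdg null hindbrain had 1000, 600, 900 and 700 bp covered in litters A, O, Q and Z, Tdg null carcass 800 and 1200 bp, Tdg null heart 4100 and 2600 bp and the Tdg null liver 2000 bp. Heart and liver lay above all 6 hindbrain and carcass libraries. WT hindbrain had none, both WT carcasses had 400 bp, and WT heart pair_b and WT liver pair_a had 500 bp each.

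Nfe2 had 1 stretch that every Tdg null library shared, chr15:103078701-103079500, 800 bp long over a coding exon at 9734 bp, and it lay under 3 of 10 WT peak sets too. The other 2 stretches lay downstream of the gene, at 12584 bp under both hearts, the Tdg null liver and 1 WT liver, and at 15134 bp, in an intron of Hnrnpa1, under both hearts, the liver and 1 hindbrain. The centre of the shared stretch, chr15:103078951-103079250 (NCBIM37, plus strand, opposite to the gene; CpG in capitals), is shown as the region of these small genes found in most libraries. It has 14 CpGs, the most of the 5 sequences given.
Nfe2 coding exon stretch: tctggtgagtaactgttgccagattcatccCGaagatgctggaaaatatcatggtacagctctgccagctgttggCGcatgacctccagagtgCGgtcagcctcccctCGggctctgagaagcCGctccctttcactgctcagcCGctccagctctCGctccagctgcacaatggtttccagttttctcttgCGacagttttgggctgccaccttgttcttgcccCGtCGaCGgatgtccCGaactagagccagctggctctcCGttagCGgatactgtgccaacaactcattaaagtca

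**Figure D2:**
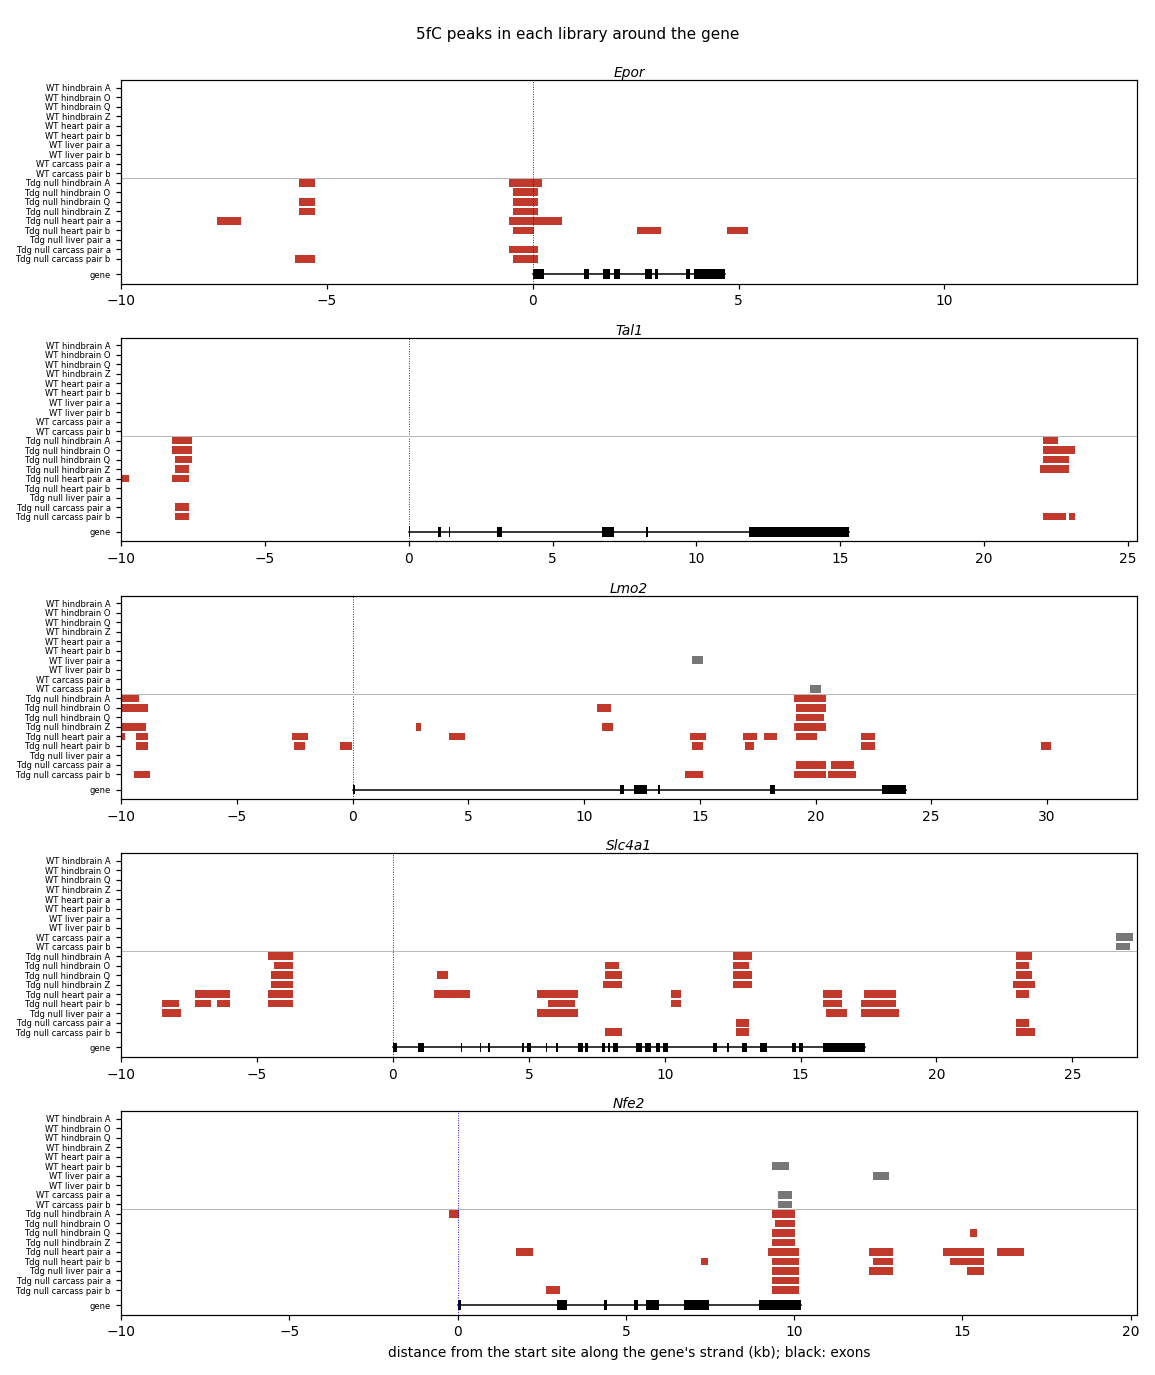
Peaks of each of the 19 libraries (rows; WT grey, Tdg null red) around Epor, Tal1, Lmo2, Slc4a1 and Nfe2, by distance from the start site in kb along the gene, with exons in black in the lowest row. The Tdg null liver row is empty for Epor, Tal1 and Lmo2, and for Slc4a1 it shares peaks with the heart rows at 6067, 16167 and 17867 bp that the hindbrain and carcass rows lack.

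Klf1, at chr8:87425827-87429194 on the plus strand, encodes the zinc finger factor that drives adult globin expression. It had 0, 0, 900 and 400 bp covered in Tdg null hindbrain A, O, Q and Z, 600 and 2000 bp in heart, 500 and 700 bp in carcass and 0 bp in the liver. Its mean covered share was the lowest of the 9 in hindbrain and carcass, while in heart that of Tal1 was lower. No WT library had a peak, and as hindbrain A and O had none either, the hindbrain groups overlapped (difference 1.01 on the log2 scale, p = 0.429, two-sided exact permutation test, adjusted p = 0.553 over all windows). No library had a peak within the gene itself. Its stretches were 600 bp long, at -1527 bp under both hearts and at 5873 bp under 2 hindbrains, 1 heart and both carcasses (chr8:87431401-87432000). The window also touches Dnase2a, Gcdh and Mast1, so its few peaks need not belong to Klf1.

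Tfrc, at chr16:32609006-32632880 on the plus strand, encodes the transferrin receptor, which all dividing cells carry and red cell precursors carry in large amount. Tdg null hindbrain had 1580, 1780, 2080 and 1480 bp covered in litters A, O, Q and Z, heart 3180 and 1880 bp, carcass 2280 and 2880 bp and the liver 1900 bp. WT hindbrain O and Q had 680 and 700 bp and WT carcass pair_b 400 bp, with none in the other WT libraries. Hindbrain differed least between the genotypes here among the 8 members without overlap, by 2.18 on the log2 scale. The stretch shared most, chr16:32641601-32642880, ran to the end of the window at 33234 bp, under 8 of 9 Tdg null libraries, the liver being the exception, and 2 WT hindbrains. Another at -756 bp lay under 8 Tdg null libraries, the liver among them, and 1 WT carcass. The stretches at 5594 bp, in an intron, and at 31444 bp lay under the liver and 1 heart.

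Kit and Bcl11a were covered most. Kit, at chr5:75970941-76052747 on the plus strand, encodes the stem cell factor receptor of blood stem cells, germ cells and melanoblasts. It had 10300, 9900, 12000 and 12100 bp under peaks in Tdg null hindbrain A, O, Q and Z, 28200 and 15500 bp in heart, 21400 and 28100 bp in carcass and 6500 bp in the liver. Kit also had the most WT coverage in hindbrain, with 600, 3200, 6800 and 0 bp in litters A, O, Q and Z. Every Tdg null hindbrain was above these. Of its 27 stretches 11 lay under a WT peak as well. The most shared, chr5:76046101-76047400, was 1300 bp long in an intron at 75809 bp and lay under peaks of all 9 Tdg null libraries, 3 WT hindbrains and 1 WT carcass.

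Bcl11a, at chr11:23978056-24074123 on the plus strand, encodes a zinc finger repressor that neurons express as well as blood cells. It had 10100, 12000, 11100 and 11000 bp covered in Tdg null hindbrain A, O, Q and Z, 29800 and 13800 bp in heart, 28400 and 37100 bp in carcass and 15100 bp in the liver. In covered bases carcass pair_b was the highest library and all hindbrains lay below the other tissues. In relative coverage hindbrain A, O, Q and Z had 1.23, 1.88, 1.40 and 1.33, so hindbrain O lay above both hearts (1.64 and 1.66). Carcass had 2.15 and 2.06 and the liver 2.04. Heart minus hindbrain was 0.19 in relative coverage (limma adjusted p = 0.559). WT hindbrain had 0, 200, 1500 and 0 bp, so the genotypes lay 4.79 apart on the log2 scale. That was the widest gap of the 9 genes in covered bases, and Bcl11a also has the longest window. Mean relative coverage was 1.46 in Tdg null and 0.15 in WT hindbrain. For Slc4a1 it was 0.96 and -0.38, a gap no narrower than that of Bcl11a. Of 38 stretches 3 lay under all 9 Tdg null libraries, and the most shared, chr11:24013901-24015900, was 2000 bp long in an intron at 36844 bp, with 4 WT libraries also covered. The stretch chr11:23991701-23992100 lay under the liver and 1 heart alone. A830031A19Rik overlaps the window.

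**Figure D3:**
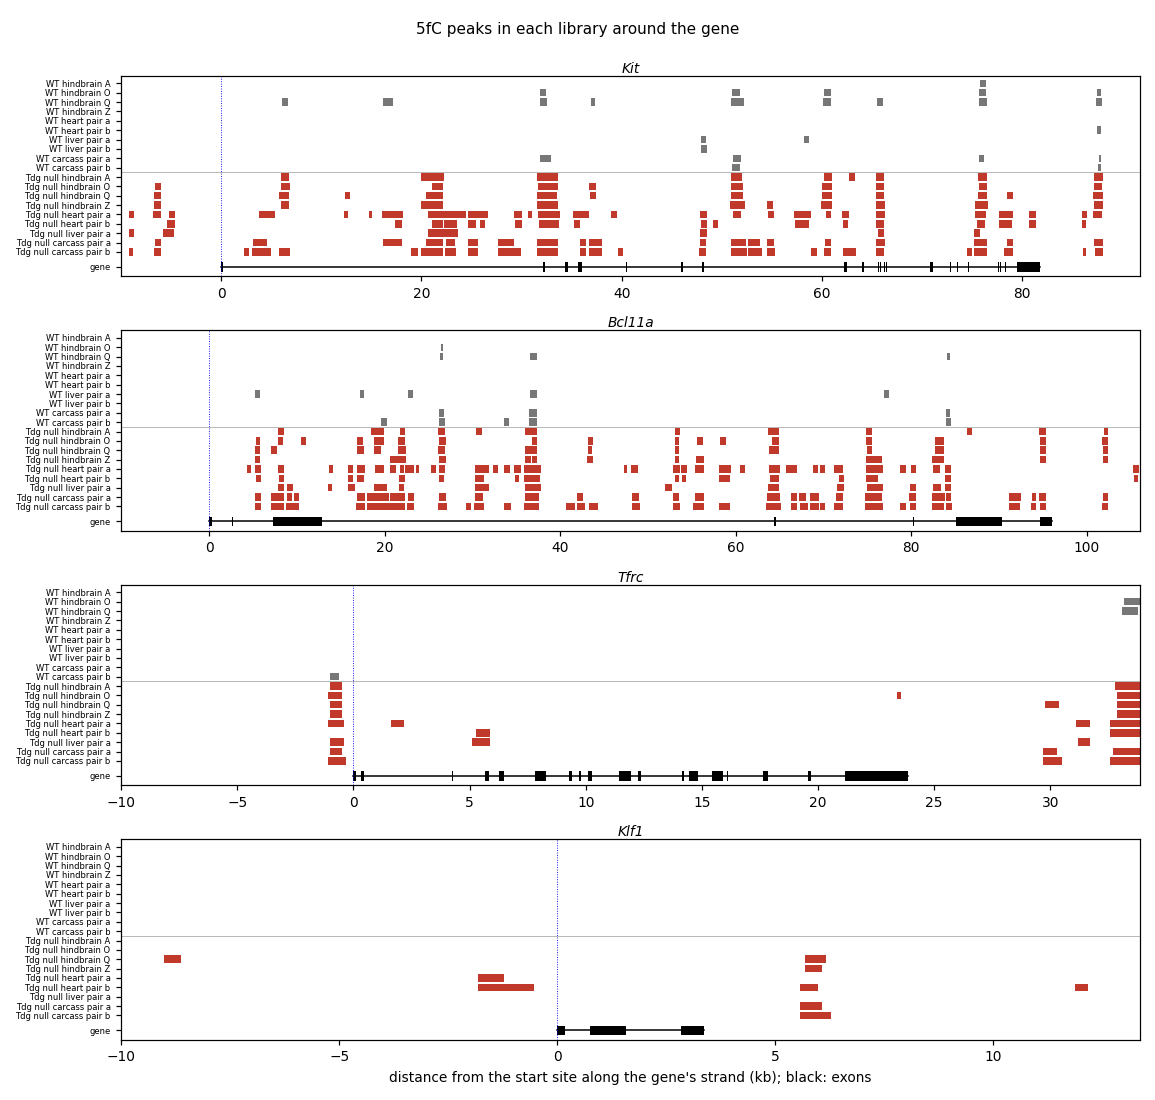
Peaks of each of the 19 libraries (rows; WT grey, Tdg null red) around Kit, Bcl11a, Tfrc and Klf1, by distance from the start site in kb along the gene, with exons in black in the lowest row. Kit and Bcl11a carry peaks along their introns, with the most shared stretches at 75809 and 36844 bp, and Klf1 has no peak over its exons.

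The liver, where red cells form at this stage, was set against the other Tdg null tissues by limma on relative coverage over 16701 gene windows with a mean covered share of at least 1%. The lone liver library takes its spread from the other tissues, so its values have no replicate of their own. Of the 9 members 2 were called lower, Lmo2 and Epor, against 11.2% of all windows called lower. Lmo2 had a difference of -3.43 (SE 0.525, limma adjusted p = 0.00545) and Epor of -2.16 (SE 0.334, limma adjusted p = 0.00569). As the liver had no base covered in either window, these differences depend on the 200 bases added and give no fold. Of the 9 members 1 was called higher, Nfe2, against 2.01% of all windows, with a difference of 1.06 (SE 0.279, limma adjusted p = 0.0460). Slc4a1 had 1.16 (limma adjusted p = 0.0614), with a 95% interval from 0.39 to 1.94. With the embryo as a random block it was called, at 1.21 (limma adjusted p = 0.0438), which makes 4 members called.

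The liver calls changed with the settings. With the excluded second liver library put back none of the 3 was called, the differences being -1.97 for Lmo2 (adjusted p 0.163), -1.04 for Epor (0.302) and 0.56 for Nfe2 (0.391). None was called after every library was thinned to the same number of peaks, where they were -2.75 (adjusted p 0.219), -1.60 (0.541) and 1.30 (0.525). In these settings 68 of 16701 and 361 of 15384 windows were called in all, against 2210 in the main one. Nfe2 was called in 8 of 21 settings, Epor in 17 and Lmo2 in 19. Slc4a1 was also called after centring, at 1.42, and it was 1.28 without heart pair_b. Kit, at -0.77 and not called in the main setting, was called lower in some others. It was -1.03 on gene bodies, -0.91 with 20 kb and -0.77 with 1000 bases added. Without any 1 of the 4 Tdg null hindbrains, heart pair_a or either carcass, Nfe2 had differences of 0.99 to 1.08 with adjusted p of 0.0514 to 0.0819. On gene bodies alone Nfe2 was 0.30 (adjusted p 0.487) and Epor -0.84 (0.122).

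The 4 members with no peak in the Tdg null liver, Klf1, Tal1, Lmo2 and Epor, each had peaks in at least 6 of the 8 other Tdg null libraries. Of 15721 gene windows with peaks in that many, 18.5% had none in the liver, and this comparison was chosen after the values were seen. The liver also had the fewest peaks of the 9 Tdg null libraries, with a peak in 63.0% of gene windows, against 71.3% to 81.3% in the others. What part peak number has in the missing peaks was not tested for these genes beyond the thinning above. The median difference of the 9 members was -0.77. It was 0.70 over 20 other blood genes tested, 0.65 over 11 hepatocyte genes, 0.10 over 10 endothelial genes and -0.04 over all windows, with 1, 0, 0 called higher and 2, 0, 1 called lower in these 3 lists.

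Among the other blood genes Trim10, an erythroid RING finger gene, stood highest in the liver. It had 3100 bp covered there, 800 and 1300 bp in Tdg null heart and 0 bp in all 6 hindbrain and carcass libraries (difference 3.76, limma adjusted p = 0.00361). Zfpm1, which encodes the GATA cofactor FOG1, had 1.29 (limma adjusted p = 0.0813) and did not pass the test. The lowest were Ikzf1, the lymphoid factor Ikaros, at -3.01 (limma adjusted p = 0.00496) and Tspan33, an erythroid tetraspanin, at -2.72 (limma adjusted p = 0.00248), both with 0 bp in the liver, followed by Gata2, a stem cell GATA factor, at -0.64 (limma adjusted p = 0.729). With libraries at 0 bp on 1 side, the sizes for Trim10, Ikzf1 and Tspan33 depend on the 200 added bases and give no fold. With the second liver Trim10 was 2.94 (adjusted p 0.0461), Ikzf1 -0.97 (0.546) and Tspan33 -1.25 (0.304), and thinned they were 3.57 (0.0947), -2.93 (0.049998) and -1.90 (0.531).

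Heart against hindbrain gave 2 calls among the members. Nfe2 was higher in Tdg null heart by 1.20 (SE 0.226, limma adjusted p = 0.00897), with 18.2% of all windows called higher, and Tal1 was lower as given above, with 13.1% called lower. Without heart pair_b neither was called, Nfe2 having a difference of 0.99 (adjusted p 0.0658) and Tal1 of -1.80, and calls over all windows fell from 5221 to 1588 with 1 heart library left. Thinning ended both calls, with Nfe2 at 0.79 (adjusted p 0.471), and Nfe2 was also not called with the second Tdg null liver in the fit (1.20, adjusted p 0.0581). When the expectation was taken from windows of like GC content, the calls over all windows turned from 3033 higher and 2188 lower to 1972 and 2867. On the gene body alone, Nfe2 differed by 0.15 (limma adjusted p = 0.574), the heart peaks being mostly downstream. Tal1 had no base covered in its gene body and was not tested there, and Epor was called higher, at 0.97 (limma adjusted p = 0.0206). In the main setting Slc4a1 was not called, at 0.69 (limma adjusted p = 0.0878).

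Carcass against hindbrain gave 1 call, Slc4a1, lower in Tdg null carcass with a difference of -1.70 (SE 0.271, limma adjusted p = 0.0133), where 6.29% of all windows were called lower and 0.814% higher. It was called in 16 of 22 settings, and without carcass pair_a the difference was -1.56 (adjusted p 0.0841). The 5 other settings that ended the call were thinning (-2.60, adjusted p 0.164), the second liver (-1.70, 0.114), the gene body (-1.27, 0.0797), centring on the median window (-1.27, 0.0520) and peaks of at least 600 bp (-3.12, 0.0511). The other 8 members were not called, and the 95% interval was widest for Klf1, from -1.78 to 2.16.

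Carcass against heart gave 3 calls, all lower in Tdg null carcass, where 24.5% of all windows were called lower and 8.17% higher. They were Slc4a1 with a difference of -2.39 (SE 0.313, limma adjusted p = 0.00274), Nfe2 with -1.75 (SE 0.261, limma adjusted p = 0.00405) and Epor with -1.04 (SE 0.313, limma adjusted p = 0.0394). Slc4a1 was called in 21 of 22 settings, Nfe2 in 20 and Epor in 10, and thinning the libraries ended all 3 calls, the differences then being -2.69 for Slc4a1, -2.09 for Nfe2 and -0.79 for Epor. On the gene body alone Nfe2 was -0.38 (adjusted p 0.236). Leaving out 1 library ended the Epor call for either carcass, heart pair_b, or hindbrain Q or Z. Heart, carcass and liver share embryos and these comparisons share libraries, so they are not independent of each other.

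**Figure D4:**
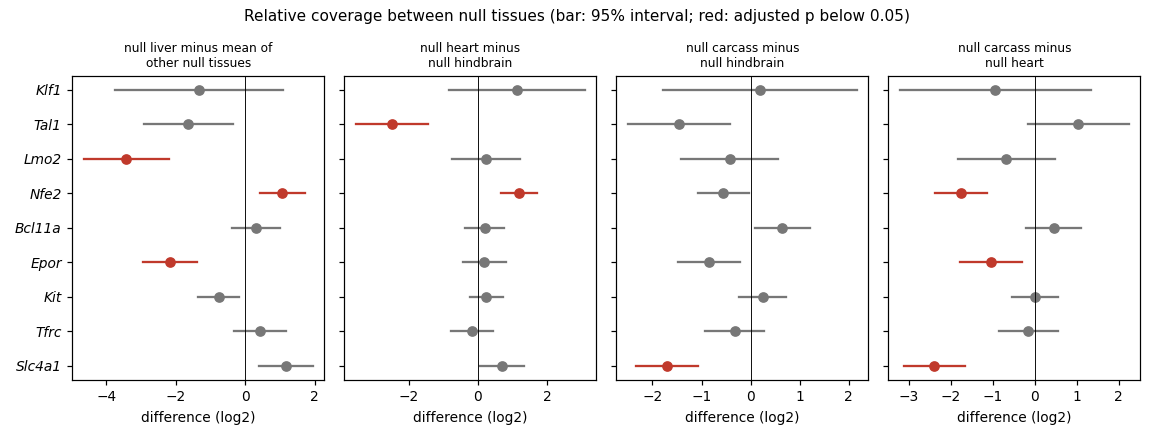
Differences in relative coverage (log2) between Tdg null tissues for the 9 genes, from the limma fit over all gene windows; points are differences, bars 95% intervals, and red marks an adjusted p below 0.05. Lmo2 and Epor lie lowest among the red points in the liver panel, at -3.43 and -2.16, and Slc4a1 lies at -1.70 and -2.39 in the carcass panels.

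Intronic peaks were mostly those of Kit and Bcl11a, with 100 of 141 and 156 of 190 Tdg null peaks in their own introns. Lmo2 had 20 of 32, Slc4a1 10 of 41, Tfrc 3 of 25, Nfe2 2 of 21, and Klf1, Epor and Tal1 none of 9, 15 and 14. Of all 488 peaks counted over the Tdg null libraries, 59.6% had their midpoint in an intron of the member, 24.6% outside genes, 7.99% in a coding exon and 2.66% in a UTR. Of 53 WT peaks 67.9% were intronic and 20.8% outside genes. Peaks had a median length of 700 bp in Tdg null and 600 bp in WT libraries. Of the 99 stretches 30.3% lay under the Tdg null liver peaks and 25.3% under a WT peak, against 31.1% and 22.1% of 286783 stretches found in the same way over the genome. Stretches of heart and liver alone made up 10.1% here and 6.89% over the genome, with 4 of the 10 in Slc4a1, and those of hindbrain and carcass alone 10.1% and 17.96%. AGATAA, searched on both strands of the central 300 bp, was held by 21.2% of the 99 stretches and by 20.2% over the genome, and the median number of CpGs there was 6 and 5.

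The gene windows whose relative coverage followed Slc4a1 most closely over the 9 Tdg null libraries were Mak (Pearson r 0.983), Gtf2ird1 (0.981) and Eif5 (0.977), and those closest to Lmo2 were Snrnp35 (0.976), Prkra (0.976) and Raly (0.975). These are descriptions over 9 libraries that share tissues and embryos, picked as the highest of all tested windows.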

How the data were processed

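The 5fC pull-downs of 20 libraries were read as deposited. The authors trimmed reads with Trim Galore, aligned them to NCBIM37 with Bowtie2 and ran MACS within SeqMonk separately for every library (p cutoff 1e-05, fragments of 200 bp). An input library is not given in the sources used here. The deposited values are positions only, the start and end of every peak at steps of 100 bp, with neither counts nor scores, and were read as 1-based. Calls therefore depend on the depth of each library, which is unknown here.

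Covered bases were counted per gene window (GENCODE gene body plus 10 kb) and tested by exact permutation in hindbrain and over litters, and by limma 3.58.1 (R 4.3.3, Benjamini-Hochberg over 16701 windows, threshold 0.05) between Tdg null tissues. Python 3.11.15 was used otherwise, and tests were checked on simulated data. The p-values in hindbrain rest on the spread between embryos, and those over litters on the spread between litters. Those of limma rest on the spread between libraries within hindbrain, heart and carcass, with none from the lone liver. Each spread also holds the unknown depth of the libraries.

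The 9 genes, the lists (28 other blood, 14 hepatocyte and 12 endothelial genes) and the tests were chosen with earlier results of these data known. Named were all 9 members, the 3 highest and 3 lowest other blood genes in the liver comparison, the 3 genes most like the highest and the lowest member, and per member the stretch under peaks of most libraries plus those of the liver and at most 1 other Tdg null library. Further stretches and the sequences shown were chosen after their values were seen. Some items that this rule names are not reported here.

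Hindbrain WT and Tdg null embryos are paired by the litter that the labels state. Deviations from the group means correlated at 0.0643, 0.0262, -0.0374 and -0.0372 for A, O, Q and Z. Alternatives were the window, peak length, merging of near peaks, the added bases, scaling, GC content, thinning, the filter, the excluded library, the pairing and each library left out.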

Additional observations from a re-analysis of the deposited data

Results flagged for a closer look

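Bcl11a covered bases in WT hindbrain stood out in 1 library of 4. Litter Q had 1500 bp and the others 0, 200 and 0 bp, a gap of 0.867 of the range of the group, above Dixon's critical value for 4 samples. That value assumes normal data, while these lie at or near 0 in steps of 100 bp. How often chance gives such a group here is therefore not known. Litter Q also had the most peaks of the WT hindbrains, 21543 against 1562 to 8988.

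Lmo2 was covered less in the Tdg null than in the WT liver of pair_a, by -500 bp (0 against 500 bp), and more in each Tdg null library of hindbrain, heart and carcass than in its WT partner. The difference between the tissues was not tested, since the liver has 1 pair, and the other WT liver had 0 bp.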

How the results depend on the processing

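The hindbrain gain of the 9 windows had the same direction in every setting run, 3.37 to 5.21 with 1 library left out. Under the replicate block it was 4.36 with p = 0.125 in the exact sign-flip test, the lowest that 4 litters allow. The mean over 6 litters was 3.88 to 4.99 with 1 litter left out, at an exact p of 0.0625. Relative coverage in hindbrain had no stable sign: it was 0.094 with 20 kb on each side, 0.14 and 0.19 with 50 and 1000 bases added, 0.64 without the Kit and Bcl11a windows (p = 0.114, exact permutation test, an alternative chosen after seeing the data), and -0.64 to 0.34 with 1 library left out. The count of 8 members without overlap was 8 with any library left out and 6 on gene bodies alone, where Tal1 and Tfrc overlapped; over all windows the share was 63.4% to 67.4% and 43.1%.

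Members called in the liver numbered 3 in the main setting, 2 to 5 with 1 library left out, 4 with the embryo as replicate block, and 0 with the second Tdg null liver or after thinning. Heart against hindbrain had 2. On gene bodies it had 1, where Epor was called at 0.97, Nfe2 was at 0.15 and Tal1 was not tested. It had 1 with the second liver (Tal1, with Nfe2 at 1.20) and 0 after thinning (Tal1 -1.66 and Nfe2 0.79). Without heart pair_b Nfe2 was 0.99 and Tal1 -1.80, and without heart pair_a Slc4a1 was 1.03. Carcass against hindbrain had 1, Slc4a1 at -1.70. It had 0 after centring on the median window (Slc4a1 at -1.27) and on gene bodies (-1.27). It also had 0 with peaks of at least 600 bp (-3.12), with the second liver (-1.70) and after thinning (-2.60). It had 2 with 20 kb and 3 with 1000 bases added, and without carcass pair_a Slc4a1 was -1.56. Carcass against heart had 3, then 0 after thinning and 2 to 4 with 1 library left out. Calls over all windows fell too, from 2210 to 68 with the second liver and 361 thinned in the liver, from 5221 to 2140 and 1240 in heart against hindbrain, from 1187 to 325 and 409 in carcass against hindbrain, and from 5457 to 1617 thinned in carcass against heart. Centring moved the median of all windows from -0.48 to 0.03 there, and the calls from 1364 higher and 4093 lower to 2503 and 1795, and GC content to a median of -0.19 and 1756 and 2650. In heart against hindbrain GC content moved the median from 0.23 to -0.02, and thinning left 531 calls higher and 709 lower. In carcass against hindbrain centring moved the median from -0.28 to 0.15 and the calls from 136 and 1051 to 466 and 409, and in the liver from -0.04 to 0.21 and from 335 and 1875 to 589 and 1417.

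No called member difference changed sign in 185 recomputed values, of which 46 lost the call. Of 554 for differences that were not called, 35 changed sign and 15 gained a call; the cause was not tested. In the liver comparison Tal1 was 0.25 and Tfrc -0.13 with 20 kb, and Bcl11a -0.73 with the second liver. In heart minus hindbrain Epor was 0.97 on the gene body, where it was called (limma adjusted p = 0.0206). Its other values were -0.85 with 20 kb, -0.040 with peaks of at least 600 bp, -0.11 by GC content, -0.87 thinned and -0.20 to 0.58 with 1 library left out. Tfrc was 1.15 on the gene body, 0.13 with peaks of at least 600 bp and -0.35 to 0.0088 with 1 library left out. Lmo2 was -0.021 on the gene body, -0.90 with peaks of at least 600 bp, -0.13 by GC content, -0.20 thinned and -0.051 to 0.47 with 1 library left out. By GC content Kit was -0.076 and Bcl11a -0.12, and Klf1 was -0.10 to 2.35 with 1 library left out. In carcass minus hindbrain Klf1 was -0.48 with 20 kb, -0.16 with 1000 bases added and -0.17 to 0.65 with 1 library left out, and Tfrc was 0.11 after centring. In carcass minus heart Klf1 was 0.15 thinned and -2.16 to 0.29 with 1 library left out, Tal1 -0.33 with peaks of at least 600 bp and -0.24 thinned, and Lmo2 0.40 with peaks of at least 600 bp. Tfrc was -2.19 on the gene body, where it was called (limma adjusted p = 0.0233), 0.36 after centring, 0.85 thinned and -0.33 to 0.031 with 1 library left out. Kit was -0.00094 with 50 bases added and -0.12 to 0.13 with 1 library left out. The unknown depth limits every comparison between libraries.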
